A study of Drosophila melanogaster with 12 samples.

Results

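The glutathione S-transferase (GST) genes of *Drosophila* were examined in RNA-seq libraries of whole larvae that lacked *Gpdh1*, or both *Gpdh1* and *Ldh*. Members were all genes with a FlyBase symbol made of Gst, 1 of the class letters D, E, O, S, T or Z, and a number. This rule found 35 of the 17185 genes counted: 11 of class D (delta), 14 of class E (epsilon), 3 of class O (omega), 1 of class S (sigma), 4 of class T (theta) and 2 of class Z (zeta). The 4 groups had 3 libraries each. Double mutants carried Gpdh1[12] over Gpdh1[14] together with Ldh[16] over Ldh[17], and their controls, the double heterozygotes, carried Gpdh1[12]/+ and Ldh[16]/+. *Gpdh1* mutants carried Gpdh1[12] over Gpdh1[14], and their controls, the *Gpdh1* heterozygotes, Gpdh1[12]/+. All 4 groups thus carried w[1118] and the Gpdh1[12] allele, and no group had 2 unmutated copies of *Gpdh1*. The larvae came from eggs kept at 25°C for 60 hours, and each library was made from pooled whole animals that the study counts as a biological replicate. The labels call the stage mid-L3, whereas the text of the study gives mid-L2, and it names the *Gpdh1* alleles A10 and B18. The study compared each mutant with its matched heterozygote to learn how the loss of 1 or both enzymes changes the larva. It also profiled *Ldh* single mutants and their heterozygotes, which are not among the 12 libraries used here. Effects of losing *Ldh* alone therefore cannot be told apart here from those of losing both enzymes.

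GST enzymes couple the tripeptide glutathione to electrophilic compounds, among them insecticides, plant toxins and the products of lipid peroxidation, so that these can be exported. In flies the delta and epsilon classes are large, specific to insects and arranged in gene clusters, and they are the classes best known for detoxification. The enzymes removed here, glycerol-3-phosphate dehydrogenase (*Gpdh1*) and lactate dehydrogenase (*Ldh*), each oxidise NADH in the cytosol of the growing larva.

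Levels are given as CPM, counts scaled to a common library size by the trimmed mean of M values (TMM) method, and levels of different genes are compared only as CPM per kilobase of merged exons. A gene was called higher or lower at a Benjamini-Hochberg adjusted p under 0.05 in edgeR's quasi-likelihood test, adjusted over all genes tested, with no limit on the fold change. Fold changes are mutant over control on the log2 scale, with their standard error (SE).

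The libraries held between 22339930 and 26605495 counts on genes. *Ldh* was at 3.60 to 4.24 CPM in double mutants, against 439 to 457 CPM in double heterozygotes. *Gpdh1* was at 60.8 to 61.9 CPM in double mutants, against 445 to 506 CPM in double heterozygotes, and at 232 to 288 CPM in *Gpdh1* mutants, against 412 to 520 CPM in *Gpdh1* heterozygotes. The labels give both mutants the same *Gpdh1* alleles, and the part of their unequal *Gpdh1* levels in any difference between the mutants was not tested. The coefficient of biological variation was 0.0372 in double mutants, 0.198 in double heterozygotes, 0.0981 in *Gpdh1* mutants and 0.134 in *Gpdh1* heterozygotes, so the double mutant libraries were far closer to each other than those of the other groups. Among double heterozygotes, replicate 2 was the library least like the others, and GST results that change without it are given with and without it. Results for tissue markers and for other genes of the glutathione system were not recomputed without it. In whole animals, fewer cells of a type and less RNA per cell cannot be told apart. Larvae were matched by age, and the study reports a developmental arrest of double mutants, so differences in stage cannot be told apart from the mutations. Other variants on the chromosomes that carry the mutant alleles cannot be told apart from the mutations.

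Of the 35 genes, 21 lie in 2 clusters. In the BDGP6.54 annotation, the D cluster holds all 11 class D genes on chromosome 3R, positions 12364776 to 12385624, the same chromosome as *Ldh* but the other arm. *GstD10*, *GstD9* and *GstD1* lie on its minus strand, followed by *GstD2* to *GstD8* and *GstD11* on its plus strand. The E cluster holds *GstE10* and *GstE1* to *GstE9* on chromosome 2R, positions 18396638 to 18409835, the same chromosome as *Gpdh1* but the other arm. *GstE11*, *GstE12*, *GstE13*, *GstE14* and *GstS1* lie singly on 2R, *GstT1* and *GstT2* side by side on 2R, and *GstT3* and *GstT4* apart on X. *GstO1* to *GstO3* lie together on 3L with *se* between them, and *GstZ1* and *GstZ2* are neighbours on 3R. All 35 are annotated as protein coding. Exons of 7 members overlap exons of a gene on the opposite strand: *GstE1* and *GstE10* each other by 20 bases, *GstE9* the immune adaptor gene *imd* by 40, *GstE12* *CG3894* by 33, *GstE13* *CG18659* by 6, *GstO2* *se* by 61 and *GstT2* *CG12926* by 223, which is 25.1% of its exon length. The strand setting of the counter is not given in the sources used here, so reads in these stretches may be missing from either gene. Members of a cluster are related in sequence, and reads that aligned to more than 1 place were left out of the counts.

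The family ran from 1610 to 0.238 CPM per kilobase by the mean of the 4 group means. *GstD1*, which acts on lipid peroxidation products and is a common reporter of the Nrf2 pathway, was the most abundant in each group. Its level was 1758 ± 62.2 CPM per kilobase in double mutants, against 1565 ± 85.6 in double heterozygotes, and 1621 ± 58.1 in *Gpdh1* mutants, against 1494 ± 105 in *Gpdh1* heterozygotes (SD, n = 3 each). It took 31.3% ± 0.595 of all GST counts, scaled by TMM, in double mutants, against 37.5% ± 1.68 in double heterozygotes, and 33.5% ± 0.0867 in *Gpdh1* mutants, against 36.7% ± 0.797 in *Gpdh1* heterozygotes. By the mean of the 4 groups, *GstE1* came next (499.8 CPM per kilobase), followed by *GstD7* (279), *GstE6* (259), *GstE3* (178), *GstD2* (176) and *GstD3* (168). The other classes were led by *GstO3* at 119.9, *GstS1* at 87.7, *GstT1* at 66.5 and *GstZ1* at 22.0 CPM per kilobase. *GstZ2* followed *GstZ1* closely at 21.0, and *GstE12* at 120.7 lay beside *GstO3*, with either of the pair the higher depending on the group. At the low end, *GstO1*, *GstE2*, *GstE4*, *GstE14* and *GstD11* were between 2.34 and 0.238 CPM per kilobase. *GstE14*, which was singled out after its values were seen, encodes Noppera-bo, an enzyme that the prothoracic gland needs to make ecdysteroids. It had between 6 and 35 counts per library, so only large changes in it could have been detected.

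**Figure D1:**
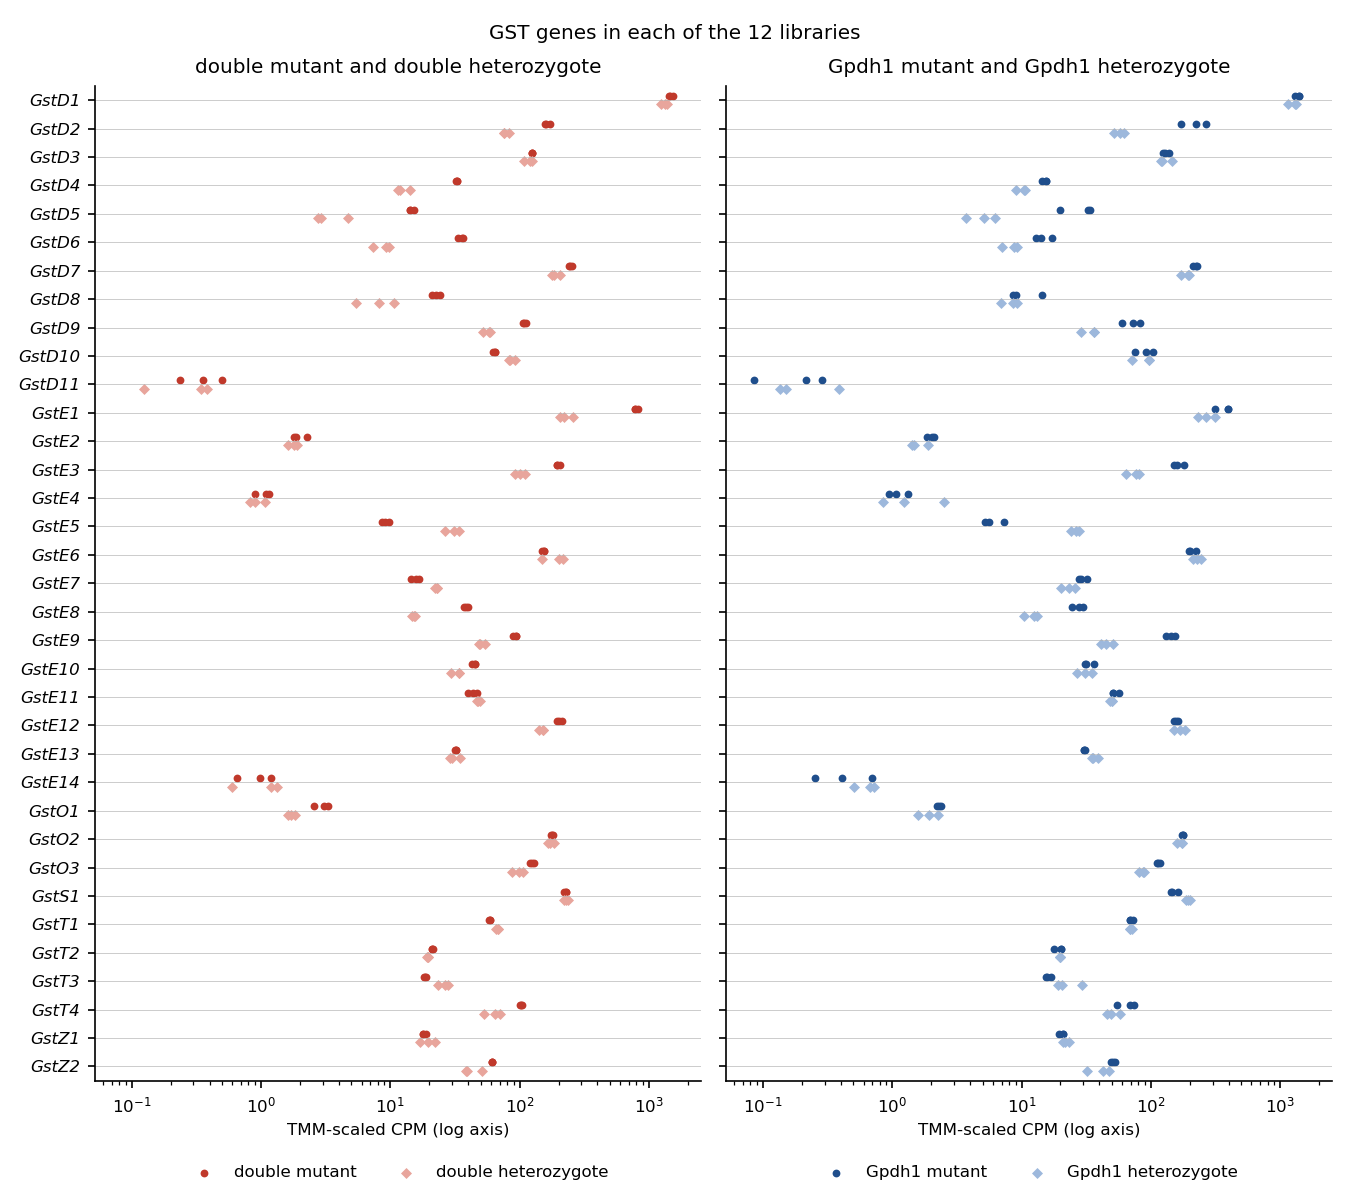
TMM-scaled CPM of the 35 GST genes (rows) on a log axis, with double mutants and double heterozygotes in the left panel and *Gpdh1* mutants and *Gpdh1* heterozygotes in the right panel. Each point is 1 library, 3 per group, and *GstD1* lies above all other members in all 12 libraries.

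In double mutants, 17 of the 34 GST genes tested were higher and 5 were lower than in double heterozygotes, and 12 did not pass the test. Among all genes tested, 25.3% were higher and 25.9% were lower. The median log2 fold change of the 34 genes was 0.26, against -0.03 over all genes. A log2 fold change above 1 was reached by 7 members (*GstD2*, *GstD4*, *GstD5*, *GstD6*, *GstD8*, *GstE1* and *GstE8*) and a log2 fold change below -1 by *GstE5*, against 6.86% and 3.57% of all genes. *GstD11* had 2 to 14 counts per library and was removed by the filter on low counts. Leaving out double heterozygote replicate 2 gave 19 higher and 6 lower genes, with *GstD1* and *GstT2* added to the higher and *GstE6* to the lower ones. If the 3 double mutant libraries, which were closer to each other than those of any other group, are summed into 1, 10 genes were higher and 2 lower. The calls lost were those of *GstD7*, *GstD8*, *GstE10*, *GstO1*, *GstO3*, *GstT4* and *GstZ2* among the higher genes and of *GstD10*, *GstT1* and *GstT3* among the lower ones (adjusted p of 0.0652 to 0.187).

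In *Gpdh1* mutants, 12 of 34 GST genes were higher and 4 were lower than in *Gpdh1* heterozygotes, and 18 did not pass. Among all genes tested, 17.9% were higher and 20.2% were lower. The median log2 fold change was 0.19 for the GST genes, against 0.01 for all genes. Here 6 members exceeded a log2 fold change of 1 (*GstD2*, *GstD5*, *GstD9*, *GstE3*, *GstE8* and *GstE9*), and *GstE5* was again the only 1 below -1, against 3.75% and 4.44% of all genes. Without *Gpdh1* mutant replicate 3, the higher genes were 9, with *GstD7*, *GstE1* and *GstE7* no longer called. The lower genes were then 2, with *GstE13* and *GstT3* no longer called.

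The same 11 genes were higher in both contrasts: *GstD2*, *GstD4*, *GstD5*, *GstD6*, *GstD7*, *GstD9*, *GstE1*, *GstE3*, *GstE8*, *GstE9* and *GstO3*. *GstE5* and *GstT3* were lower in both, and *GstE7* was lower in double mutants and higher in *Gpdh1* mutants. Another 10 genes passed in neither contrast: *GstD1*, *GstD3*, *GstE2*, *GstE4*, *GstE6*, *GstE11*, *GstE14*, *GstO2*, *GstT2* and *GstZ1*. The remaining 10 genes tested passed in 1 contrast, which does not by itself show that the contrasts differ, since the difference was tested separately. Over all genes, 25.3% were higher in double mutants and 17.9% in *Gpdh1* mutants. The shares of all genes called in both contrasts or in neither were not computed, so whether these shared counts are unusual was not tested.

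**Figure D2:**
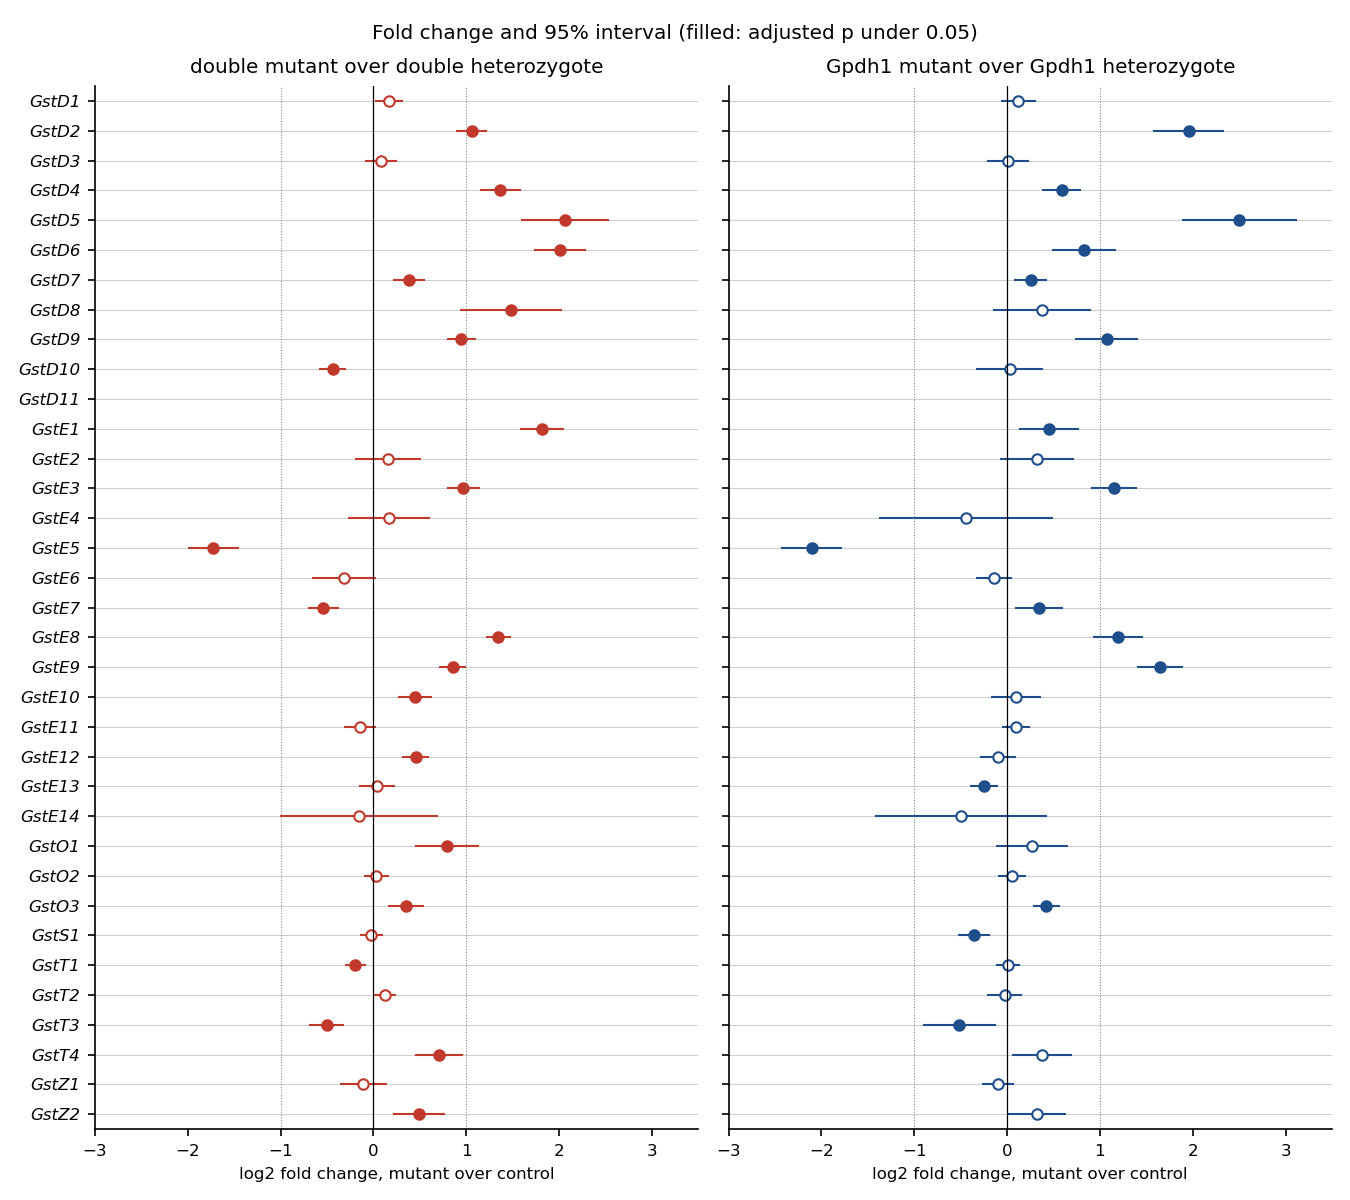
Log2 fold change (x axis) of each GST gene (rows) with its 95% interval, for double mutants over double heterozygotes on the left and *Gpdh1* mutants over *Gpdh1* heterozygotes on the right. Filled points have an adjusted p under 0.05 and dotted lines mark log2 fold changes of -1 and 1, and *GstD11* has no point because it was not tested. *GstE5* is the only member left of -1 in either panel.

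Summed over the family, GST transcripts were at 4734 ± 93.8 CPM in double mutants, against 3518 ± 61.5 CPM in double heterozygotes, and at 4076 ± 136 CPM in *Gpdh1* mutants, against 3430.4 ± 182 CPM in *Gpdh1* heterozygotes (SD, n = 3 each). The mutant libraries of each contrast were all above those of their controls. Class D gave 2294 ± 70.5 CPM in double mutants, against 1879 ± 74.2 in double heterozygotes, and class E 1629 ± 27.1 CPM, against 899.9 ± 53.8. In *Gpdh1* mutants class D gave 2169 ± 128 CPM, against 1787 ± 109 in *Gpdh1* heterozygotes, and class E 1222 ± 24.8 CPM, against 968 ± 79.3. Class E therefore made up more of the difference in double mutants than class D, and class D more of that in *Gpdh1* mutants. A sum is set mostly by its abundant members: *GstE1* alone took 16.8% ± 0.700 of the GST total in double mutants, against 6.44% ± 0.713 in double heterozygotes.

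**Figure D3:**
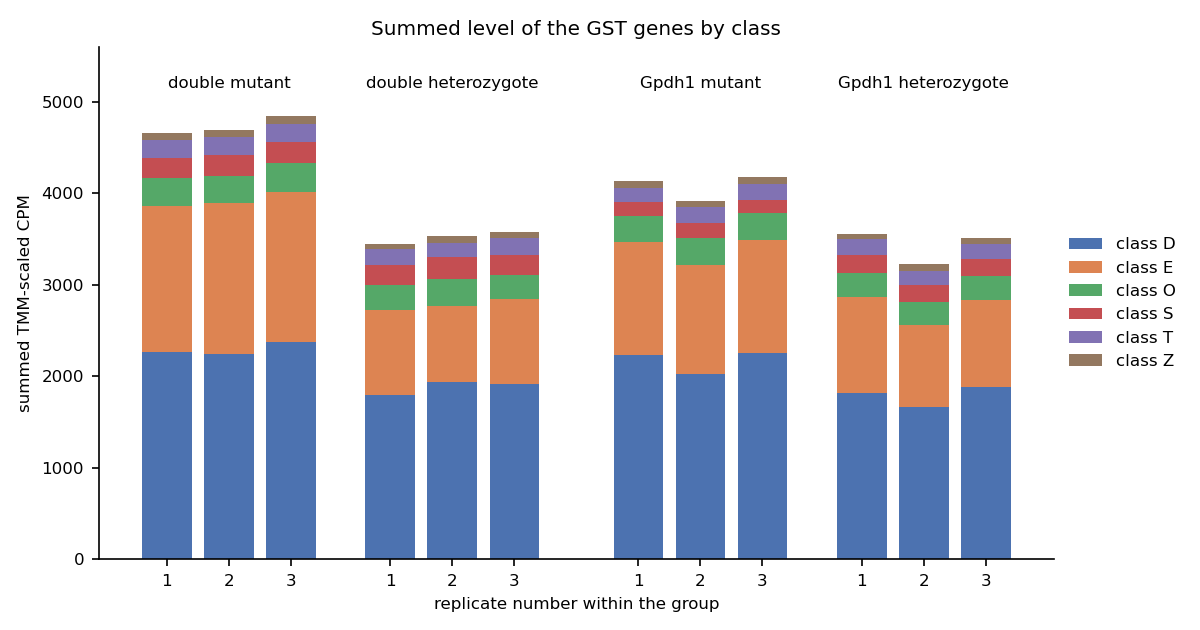
Summed TMM-scaled CPM of the GST genes by class (stacked colours) in each of the 12 libraries, ordered by group and replicate number. The double mutant bars reach 4664 to 4840.2 CPM, above the 3451 to 3572 CPM of the double heterozygotes, and the *Gpdh1* mutant bars reach 3921 to 4173 CPM, above the 3222 to 3557 CPM of the *Gpdh1* heterozygotes.

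Some marker lists of larval tissues also moved between the groups. For comparison, 25.3% of all genes were higher and 25.9% lower in double mutants, and 17.9% and 20.2% in *Gpdh1* mutants. A count near these shares, such as 1 lower of 4 tracheal markers in double mutants, is not read as a shift. Of 9 midgut markers, 9 passed as higher in double mutants, with a summed level of 4549 to 4871 CPM, against 1865 to 2024 CPM in double heterozygotes. In *Gpdh1* mutants 6 of 9 were higher, with sums of 1351 to 1797 CPM, against 913 to 1884 CPM. Of 7 Malpighian tubule markers, 5 were higher in double mutants (608 to 627 CPM, against 380.2 to 456), and in *Gpdh1* mutants 2 were higher and 1 lower (416 to 440.1 CPM, against 490.2 to 569.5). Fat body markers summed to 4058 to 4316 CPM in double mutants, against 6327 to 11251 in double heterozygotes. They summed to 3900 to 4906 CPM in *Gpdh1* mutants, against 9800.0 to 15893 in *Gpdh1* heterozygotes. In each contrast 4 were lower and 2 higher, of 6 tested in double mutants and 7 tested in *Gpdh1* mutants. Muscle markers were lower for 8 of 9 in both contrasts, summing to 45524 to 46601 CPM in double mutants, against 56919 to 62943, and to 45789 to 51652 CPM in *Gpdh1* mutants, against 63136 to 65814. Of 6 hemocyte markers, 5 were lower in double mutants (111 to 117 CPM, against 181 to 224), and 2 in *Gpdh1* mutants (193 to 202 CPM, against 188 to 232). Of the 5 larval cuticle markers tested, all were lower in *Gpdh1* mutants (261 to 294 CPM, against 888 to 1686), whereas 1 was higher and 1 lower in double mutants (768 to 788 CPM, against 598 to 823). Of 6 neuron markers, 4 were higher in double mutants (215 to 248 CPM, against 174 to 189) and 3 in *Gpdh1* mutants (208 to 231 CPM, against 178 to 186). Of 4 tracheal markers, 1 was lower in double mutants (1237 to 1278 CPM, against 857 to 3283) and 2 in *Gpdh1* mutants (2874 to 3184 CPM, against 4430 to 5937). *Lsp2* was at 0 in 3 libraries and *Fbp1* and *Cpr47Ef* in 1, the other markers being above 0 in each library. Midgut, tubules and fat body are tissues known for detoxification, and the part of these shifts in the GST results was not tested.

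Class D, the delta GSTs, held 7 higher and 1 lower gene of 10 tested in double mutants (median log2 fold change 1.004). It held 6 higher genes in *Gpdh1* mutants (median 0.48), where 4 did not pass. Over all genes tested, 25.3% were higher and 25.9% lower in double mutants, and 17.9% and 20.2% in *Gpdh1* mutants. The class was led in double mutants by *GstD5*, *GstD6*, *GstD8* and *GstD4*. *GstD5* was at 14.2, 14.3 and 15.2 CPM in double mutants, against 2.74, 4.68 and 2.92 CPM in double heterozygotes. In the other contrast it was at 33.7, 19.7 and 32.5 CPM in *Gpdh1* mutants, against 6.24, 3.73 and 5.15 CPM in *Gpdh1* heterozygotes. No control library came near a mutant library, and its log2 fold changes, 2.07 (SE 0.193, adjusted p = 0.000278) and 2.50 (SE 0.258, adjusted p = 0.00082), were the largest of the family in both contrasts. *GstD6* was at 33.2, 36.8 and 35.9 CPM in double mutants, against 9.70, 7.38 and 9.19 CPM in double heterozygotes, and at 17.3, 12.9 and 14.2 CPM in *Gpdh1* mutants, against 9.30, 7.10 and 8.71 CPM in *Gpdh1* heterozygotes. Both mutants were above their controls without overlap, but the double mutants by far more, with log2 fold changes of 2.01 (SE 0.110, adjusted p = 3.3e-05) and 0.82 (SE 0.142, adjusted p = 0.00462).

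*GstD4* had 31.9, 32.7 and 32.7 CPM in double mutants, against 12.0, 11.5 and 14.2 CPM in double heterozygotes. Its levels in *Gpdh1* mutants were 15.4, 15.5 and 14.3 CPM, against 10.6, 9.11 and 10.5 CPM in *Gpdh1* heterozygotes. The groups were apart in both contrasts, with log2 fold changes of 1.37 (SE 0.0863, adjusted p = 5.85e-05) and 0.59 (SE 0.0837, adjusted p = 0.00227). *GstD8* had 22.6, 21.0 and 24.4 CPM in double mutants, against 8.13, 10.7 and 5.41 CPM in double heterozygotes, a log2 fold change of 1.48 (SE 0.222, adjusted p = 0.00198). In *Gpdh1* mutants its 8.56, 14.5 and 9.08 CPM overlapped the 8.62, 9.26 and 6.90 CPM of *Gpdh1* heterozygotes, with replicate 2 alone clearly above, and the log2 fold change of 0.38 (95% interval -0.14 to 0.89) did not pass. With the double mutant libraries summed, the call of *GstD8* in double mutants was lost (adjusted p = 0.0687).

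*GstD2* behaved the other way round, with the larger change in the single mutant. It was at 157, 159 and 171 CPM in double mutants, against 75.5, 75.2 and 82.9 CPM in double heterozygotes, a log2 fold change of 1.06 (SE 0.0645, adjusted p = 5.19e-05). The *Gpdh1* mutants had 225, 172 and 265 CPM, against 52.0, 61.5 and 57.3 CPM in *Gpdh1* heterozygotes, a log2 fold change of 1.96 (SE 0.159, adjusted p = 0.000393). The 3 *Gpdh1* mutant libraries were spread widely. All lay above the double mutant libraries, but the lowest, replicate 2, was almost level with the highest double mutant (171.7 against 171.0 CPM). *GstD9* had 106, 108 and 111 CPM in double mutants, against 58.8, 57.9 and 51.8 CPM in double heterozygotes, and 82.0, 59.6 and 72.2 CPM in *Gpdh1* mutants, against 36.5, 28.7 and 36.6 CPM in *Gpdh1* heterozygotes. Its log2 fold changes were alike, 0.95 (SE 0.0603, adjusted p = 6.02e-05) and 1.07 (SE 0.140, adjusted p = 0.00163), with a difference of -0.12 (95% interval -0.49 to 0.25). Its 2 control groups did not overlap either, the double heterozygotes being the higher.

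Fold changes of *GstD1*, *GstD7* and *GstD3* were small. *GstD1* was at 1466, 1440.2 and 1541 CPM in double mutants, against 1246, 1390.0 and 1322 CPM in double heterozygotes, and at 1387, 1311 and 1402 CPM in *Gpdh1* mutants, against 1304, 1158 and 1318 CPM in *Gpdh1* heterozygotes. The double mutant libraries were all above their controls, but the log2 fold change of 0.17 (95% interval 0.03 to 0.31, adjusted p = 0.0503) just missed the threshold. It passed without double heterozygote replicate 2 (adjusted p = 0.0054), with RLE size factors (adjusted p = 0.0394), with DESeq2 (adjusted p = 0.0414) and in 2 further settings. For *Gpdh1* mutants it was 0.12 (95% interval -0.06 to 0.30). *GstD7*, the next delta gene in abundance by the mean of the 4 groups, was higher in both contrasts by 0.38 and 0.25. The smaller of these lost its call without *Gpdh1* mutant replicate 1 or 3 or *Gpdh1* heterozygote replicate 1 (adjusted p of 0.0706 to 0.0958). *GstD3* changed by 0.08 and 0.01 and passed in neither. *GstD10*, at 62.3 to 64.3 CPM in double mutants, against 83.1 to 91.5 CPM in double heterozygotes, was the 1 delta gene that was lower (log2 fold change -0.44), and it changed by 0.03 in *Gpdh1* mutants, where it did not pass.

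Class E, the epsilon GSTs, was more mixed, with 6 higher and 2 lower genes of 14 in double mutants (median log2 fold change 0.16). In *Gpdh1* mutants 5 were higher and 2 lower (median 0.10). The shares over all genes were 25.3% higher and 25.9% lower in double mutants, and 17.9% and 20.2% in *Gpdh1* mutants. Lower epsilon genes were thus no more frequent than lower genes in general. *GstE1*, an enzyme that conjugates products of lipid peroxidation, was at 779, 826 and 785 CPM in double mutants, against 219, 204 and 257 CPM in double heterozygotes. In *Gpdh1* mutants it was at 394, 316 and 395 CPM, against 313, 231 and 266 CPM in *Gpdh1* heterozygotes. The double mutants were thus far above every other library, at 3.51 times their controls (log2 fold change 1.81, SE 0.0944, adjusted p = 2.84e-05). The lowest *Gpdh1* mutant, replicate 2, was barely above the highest *Gpdh1* heterozygote, replicate 1, and the log2 fold change of 0.45 (SE 0.134, adjusted p = 0.0344) lost its call without *Gpdh1* mutant replicate 1 or 3 or *Gpdh1* heterozygote replicate 2 or 3 (adjusted p of 0.0826 to 0.107).

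*GstE3* was at 195, 194 and 205 CPM in double mutants, against 101, 109.5 and 92.7 CPM in double heterozygotes, and at 152, 181 and 159.8 CPM in *Gpdh1* mutants, against 76.9, 64.8 and 80.5 CPM in *Gpdh1* heterozygotes. *GstE8* was at 40.2, 37.4 and 38.3 CPM in double mutants, against 15.2, 15.6 and 14.7 CPM in double heterozygotes, and at 29.7, 24.8 and 27.96 CPM in *Gpdh1* mutants, against 13.1, 10.5 and 12.5 CPM in *Gpdh1* heterozygotes. Both genes were higher without overlap in each contrast. The log2 fold changes of *GstE3* were 0.97 (SE 0.0698, adjusted p = 9.77e-05) and 1.15 (SE 0.103, adjusted p = 0.000523), and those of *GstE8* were 1.34 (SE 0.0514, adjusted p = 9.75e-06) and 1.19 (SE 0.109, adjusted p = 0.000561). *GstE9*, the last gene of the cluster, was at 88.2, 93.5 and 93.4 CPM in double mutants, against 48.7, 53.6 and 49.8 CPM in double heterozygotes, and at 154, 131 and 144 CPM in *Gpdh1* mutants, against 51.2, 41.1 and 44.8 CPM in *Gpdh1* heterozygotes. All *Gpdh1* mutant libraries were above all double mutant libraries, by a wider margin than for *GstD2*. The log2 fold changes of *GstE9* were 0.85 (SE 0.0548, adjusted p = 6.28e-05) and 1.65 (SE 0.0994, adjusted p = 0.000197).

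*GstE5* was the member with the largest decrease. It was at 9.12, 8.64 and 9.84 CPM in double mutants, against 33.7, 26.3 and 31.1 CPM in double heterozygotes, and at 5.21, 7.29 and 5.62 CPM in *Gpdh1* mutants, against 28.03, 26.2 and 24.0 CPM in *Gpdh1* heterozygotes. The mutants of both contrasts lay far below their controls, 3.30 times lower in double mutants (log2 fold change -1.72, SE 0.108, adjusted p = 5.72e-05) and 4.30 times lower in *Gpdh1* mutants (log2 fold change -2.10, SE 0.134, adjusted p = 0.000222). *GstE7* was at 15.7, 14.5 and 16.5 CPM in double mutants, against 22.9, 22.1 and 22.8 CPM in double heterozygotes, and at 28.8, 27.8 and 31.8 CPM in *Gpdh1* mutants, against 26.1, 20.0 and 23.5 CPM in *Gpdh1* heterozygotes. It was the 1 member called in opposite directions, by -0.54 (SE 0.0637, adjusted p = 0.00075) and 0.35 (SE 0.106, adjusted p = 0.0372). The second call was lost without any 1 of the *Gpdh1* mutant libraries or without *Gpdh1* heterozygote replicate 2 or 3 (adjusted p of 0.0557 to 0.114).

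*GstE12* was at 195, 202 and 212 CPM in double mutants, against 151, 142 and 152 CPM in double heterozygotes, a log2 fold change of 0.45 (SE 0.0549, adjusted p = 0.000802). In *Gpdh1* mutants its 150.5, 161 and 158 CPM overlapped the *Gpdh1* heterozygotes, at 183, 168 and 152 CPM, and it changed by -0.10 without passing. Among the other epsilon genes, *GstE10* was higher in double mutants by 0.45 and *GstE13* lower in *Gpdh1* mutants by 0.25 on the log2 scale. *GstE2*, *GstE4*, *GstE6*, *GstE11* and *GstE14* passed in neither contrast, with log2 fold changes between -0.50 and 0.32. *GstE6*, the second most abundant epsilon gene by the mean of the 4 groups, was at 150.1 to 154 CPM in double mutants. Double heterozygotes had 218, 149 and 203 CPM, of which replicate 2 was the low library. Without that replicate *GstE6* was called lower in double mutants (adjusted p = 0.00015).

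**Figure D4:**
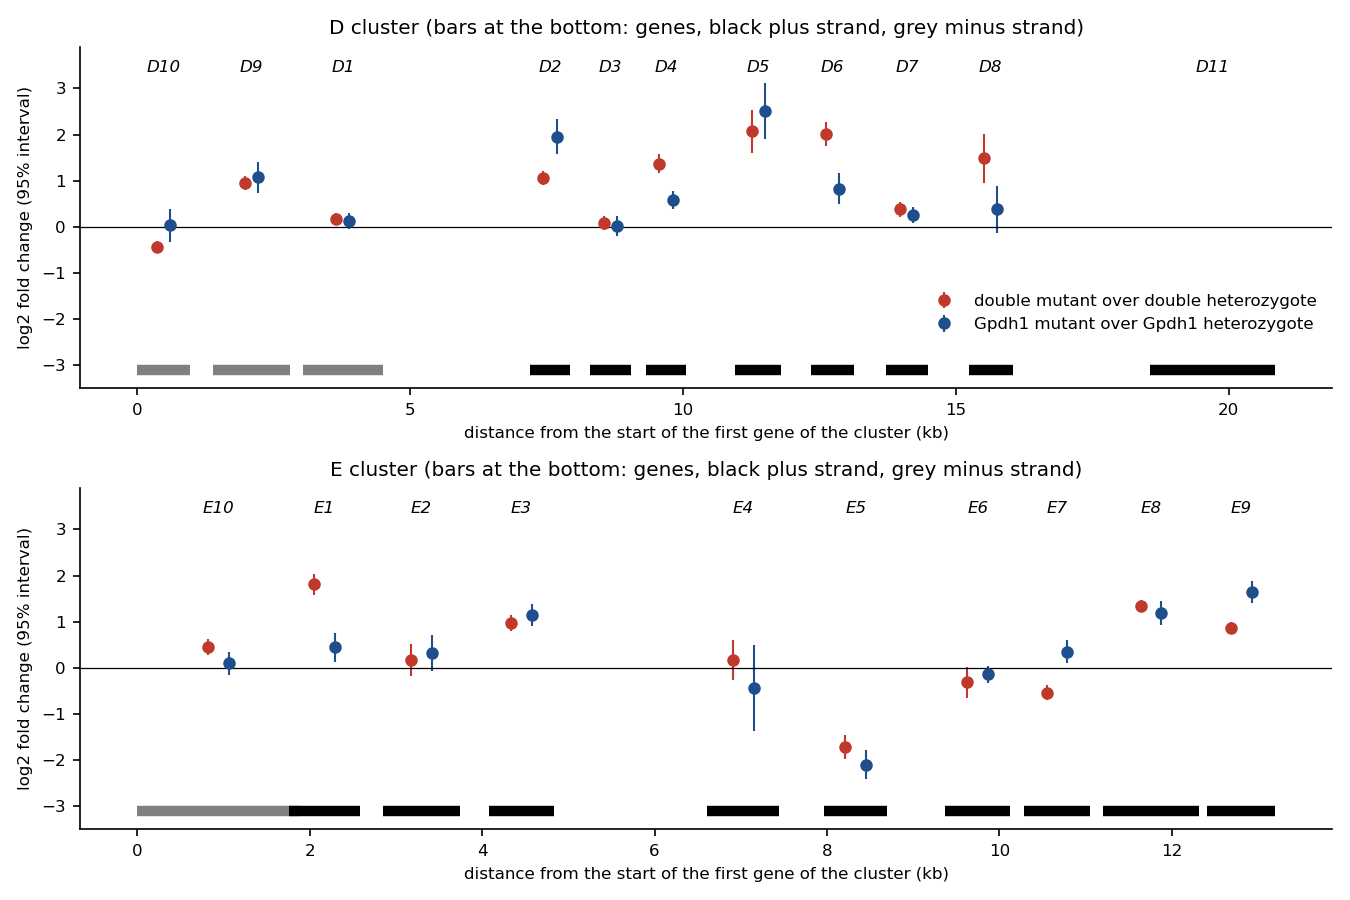
Log2 fold change with its 95% interval (y axis) of the genes of the D cluster (top) and the E cluster (bottom), placed at the middle of each gene along the cluster in kilobases, with double mutants over double heterozygotes in red and *Gpdh1* mutants over *Gpdh1* heterozygotes in blue. Bars mark the genes, black on the plus and grey on the minus strand. *GstE5*, the gene with the largest decrease, lies within the same cluster as *GstE3*, *GstE8* and *GstE9*, which were higher in both contrasts.

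Neighbours within a cluster often differed in their calls. In the D cluster *GstD3*, which did not change beyond its error, lies between *GstD2* and *GstD4*, which were higher in both contrasts. In the E cluster *GstE5* lies between *GstE4* and *GstE6*, which passed in neither contrast. Counted by place, 7 genes were higher and 1 lower of the 10 tested in the D cluster of double mutants, 5 higher and 2 lower of 10 in the E cluster, and 5 higher and 2 lower of the 14 elsewhere. In *Gpdh1* mutants, 6 of the 10 in the D cluster were higher and 4 did not pass, the E cluster had 5 higher and 1 lower of 10, and the 14 elsewhere 1 higher and 3 lower. Among all genes, 25.3% were higher and 25.9% lower in double mutants, and 17.9% and 20.2% in *Gpdh1* mutants. The counts of lower members by place lay near or below these shares. That the clusters differ from the other members was not tested.

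Genes of the smaller classes changed by less than 1 on the log2 scale throughout. *GstO3*, the leading omega gene, was at 121, 124 and 129 CPM in double mutants, against 99.4, 106 and 87.7 CPM in double heterozygotes, and at 112, 114 and 118 CPM in *Gpdh1* mutants, against 81.6, 88.9 and 86.6 CPM in *Gpdh1* heterozygotes. Mutants were above controls in both contrasts, by 0.35 (SE 0.0745, adjusted p = 0.0082) and 0.42 (SE 0.0570, adjusted p = 0.00183), the first of which lost its call with the double mutant libraries summed (adjusted p = 0.148). *GstO1* was higher in double mutants by 0.79 at 72 to 94 counts, against 39 to 45 counts in double heterozygotes, and *GstO2* changed by 0.03 and 0.05 without passing. *GstS1*, the sigma GST that is abundant in flight muscle of the adult, was at 221, 226 and 229 CPM in double mutants, against 221, 239 and 227 CPM in double heterozygotes. In *Gpdh1* mutants it was at 145, 163 and 144 CPM, against 199.7, 186 and 194 CPM in *Gpdh1* heterozygotes. The groups overlapped fully in the double mutant contrast (log2 fold change -0.02, 95% interval -0.14 to 0.09), and *Gpdh1* mutants were lower by 0.35 (log2 fold change -0.35, SE 0.0694, adjusted p = 0.00746).

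*GstT1* led the theta genes by the mean of the 4 groups, although *GstT4* was above it in double mutants (84.0 against 58.8 CPM per kilobase). In double mutants *GstT1* was at 59.4, 57.8 and 58.5 CPM, against 67.5, 65.4 and 67.7 CPM in double heterozygotes. Its levels in *Gpdh1* mutants were 69.1, 69.2 and 72.3 CPM, against 68.7, 70.9 and 69.5 CPM in *Gpdh1* heterozygotes. Double mutants lay below all other libraries, with a small log2 fold change of -0.19 (SE 0.0416, adjusted p = 0.00899). Summing their libraries ended this call (adjusted p = 0.187). The double heterozygotes in turn lay below both *Gpdh1* groups. *GstT3* was lower in both contrasts, by -0.50 and -0.51, and *GstT4* was higher in double mutants by 0.71. The *GstT3* call in *Gpdh1* mutants was lost without any 1 of the 3 mutant libraries (adjusted p of 0.0783 to 0.119). *GstT4* reached 0.38 in *Gpdh1* mutants (95% interval 0.06 to 0.69, adjusted p = 0.061) and passed there without *Gpdh1* mutant replicate 1 (adjusted p = 0.0215), without *Gpdh1* heterozygote replicate 1 (adjusted p = 0.032), with DESeq2 (adjusted p = 0.0434) and with all 12 libraries in 1 fit (adjusted p = 0.0406). *GstT2* changed by 0.13 and -0.03 and passed in neither. Of the zeta genes, whose mammalian counterpart acts in tyrosine breakdown, *GstZ1* was at 17.9, 17.7 and 19.0 CPM in double mutants, against 22.2, 19.7 and 16.8 CPM in double heterozygotes, and at 20.8, 21.0 and 19.6 CPM in *Gpdh1* mutants, against 21.1, 23.2 and 21.6 CPM in *Gpdh1* heterozygotes. It passed in neither contrast (log2 fold changes -0.11 and -0.10). *GstZ2* was higher in double mutants by 0.49 and reached 0.32 in *Gpdh1* mutants without passing (95% interval 0.02 to 0.63), although it passed without *Gpdh1* heterozygote replicate 3 (adjusted p = 0.0361).

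Whether the contrasts differ was tested by subtracting the *Gpdh1* mutant log2 fold change from the double mutant one, fitted on all 12 libraries. The signed log2 fold change was higher in double mutants for 7 GST genes and lower for 4, and 23 did not pass. Among all genes tested, 12.0% were higher and 13.5% lower in this test. *GstE1* differed by 1.37 (95% interval 0.97 to 1.76, adjusted p = 0.0005), *GstD6* by 1.19 (0.77 to 1.61, adjusted p = 0.00147), *GstD4* by 0.79 (0.53 to 1.04, adjusted p = 0.000944) and *GstE12* by 0.56 (0.34 to 0.77, adjusted p = 0.00248). In the other direction, *GstD2* differed by -0.89 (-1.30 to -0.49, adjusted p = 0.00558), *GstE7* by -0.88 (-1.16 to -0.60, adjusted p = 0.00092) and *GstE9* by -0.79 (-1.05 to -0.52, adjusted p = 0.00109). *GstS1* differed by 0.34 (0.15 to 0.53, adjusted p = 0.0163), since it was lower in *Gpdh1* mutants while its change in double mutants did not pass. Of these 8, *GstD2* and *GstS1* lost their call with the double mutant libraries summed (adjusted p of 0.0679 and 0.105), and the other 6 kept it in each of 18 alternatives. *GstD8* (1.11), *GstE13* (0.29) and *GstT1* (-0.20) also passed, but *GstD8* lost its call in 10, *GstE13* in 12 and *GstT1* in 11 of these alternatives, most of them the omission of 1 library. For *GstD5* the difference was -0.43 with a 95% interval of -1.22 to 0.36, and for *GstE5* 0.39 with an interval of -0.01 to 0.78, so neither an equal nor an unequal change of these genes could be told from their spread. Without *Gpdh1* mutant replicate 2, *GstE5* passed (adjusted p = 0.0298), as did *GstE10* and *GstD10*. Other calls were gained by omitting 1 library: *GstE6* without double heterozygote replicate 2, *GstE11* without double mutant replicate 3, *GstO1* without double mutant replicate 1 or *Gpdh1* heterozygote replicate 3, and *GstE10* without *Gpdh1* heterozygote replicate 1.

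**Figure D5:**
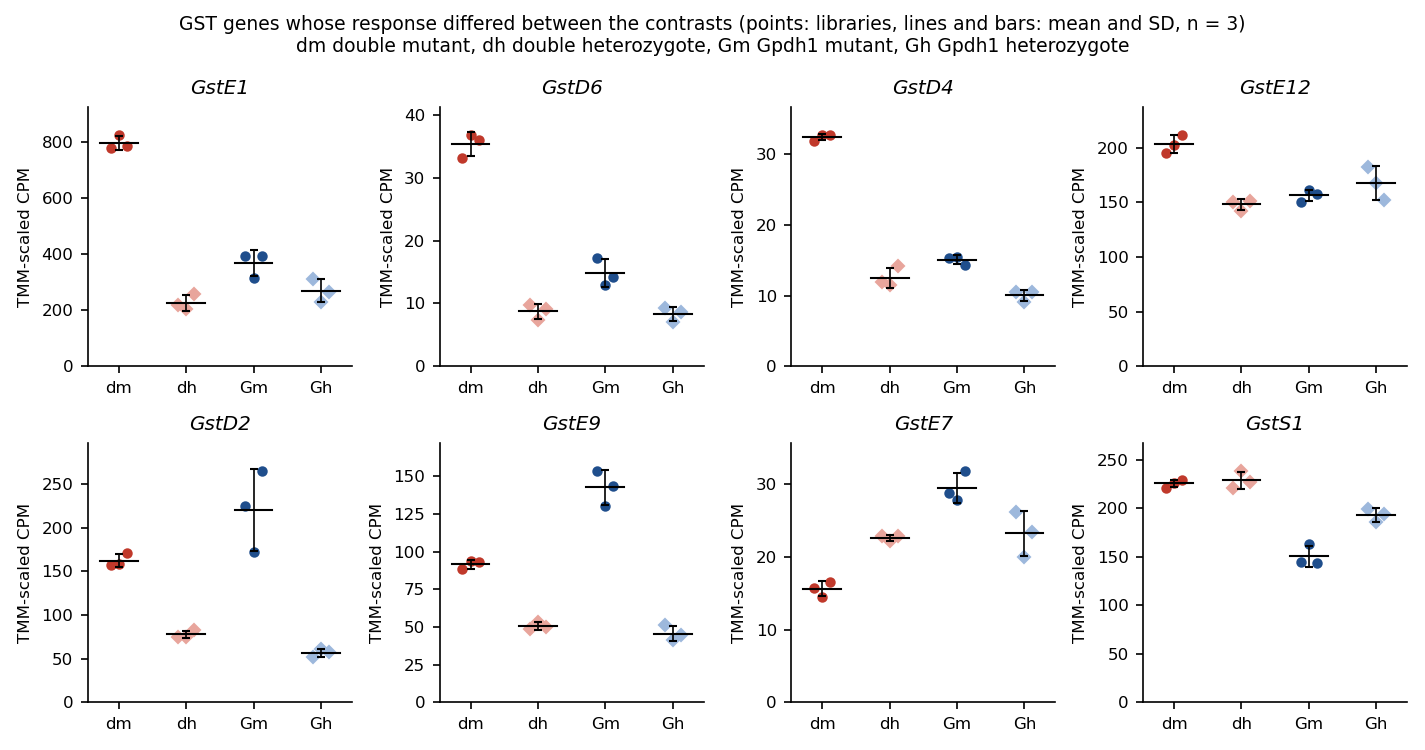
TMM-scaled CPM of the 8 GST genes with the smallest adjusted p in the test of the difference between the contrasts. Points are libraries, lines and bars the mean and SD of 3 libraries, and dm, dh, Gm and Gh stand for double mutant, double heterozygote, *Gpdh1* mutant and *Gpdh1* heterozygote. *GstE1*, *GstD6* and *GstD4* are highest in double mutants, *GstD2* and *GstE9* in *Gpdh1* mutants, and *GstE7* is lowest in double mutants.

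The control groups were compared because the difference between the contrasts also holds any difference between them. Double heterozygotes were higher than *Gpdh1* heterozygotes for 6 GST genes and lower for 1, against 14.1% and 12.3% of all genes. The higher genes were *GstD9* (0.73), *GstD2* (0.45), *GstE3* (0.45), *GstE8* (0.34), *GstD4* (0.32) and *GstS1* (0.25), and the lower gene was *GstE13* (-0.23). Without *Gpdh1* heterozygote replicate 2 the higher genes were 3 (*GstD2*, *GstD9* and *GstE3*), the *GstD2* call was lost on leaving out any of 6 other libraries (adjusted p of 0.0511 to 0.086), *GstE8* also lost its call without double heterozygote replicate 2, and the *GstE13* call was lost without replicate 1 or 2 of either control group. Of these 7 genes, *GstD2*, *GstD4*, *GstS1* and *GstE13* also passed the test of the difference, which for them also holds the difference between the controls. For *GstE13* the comparison between the mutants did not pass (log2 difference 0.06, adjusted p = 0.478). Nor did *GstE13* pass in double mutants against double heterozygotes (log2 fold change 0.04, adjusted p = 0.702). *GstE1*, *GstD6*, *GstE7*, *GstE9* and *GstE12* passed the test of the difference while their control groups did not pass, with log2 differences between the controls of -0.25 to 0.15. Calls gained on leaving out 1 library were *GstE12* as lower without *Gpdh1* heterozygote replicate 3 (adjusted p = 0.0227), *GstZ1* as lower without double heterozygote replicate 1 (0.0426), *GstT4* as higher without double heterozygote replicate 2 (0.0449), *GstO3* as higher without double heterozygote replicate 3 (0.0112), and *GstE4* as lower (0.0369) and *GstT3* as higher (0.00645) without *Gpdh1* heterozygote replicate 1.

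Double mutants were compared with *Gpdh1* mutants directly, although the crosses differ too. They were higher for 13 GST genes and lower for 8, against 18.9% and 20.0% of all genes. *GstD6* (1.25), *GstE1* (1.11), *GstD4* (1.11) and *GstD8* (1.08) were higher by more than 1 on the log2 scale. *GstD5* (-0.98), *GstE7* (-0.92) and *GstE9* (-0.64) were the lowest relative to *Gpdh1* mutants. *GstD5* and *GstE5* were thus both less extreme in double mutants than in *Gpdh1* mutants, *GstE5* being higher there by 0.61. With the double mutant libraries summed, 7 genes were higher and 4 lower, and *GstD5*, *GstD8* and *GstE5* were among those that no longer passed (adjusted p of 0.0619 to 0.114). Several other calls rested on single libraries. *GstO1* (0.38) lost its call on leaving out any library (adjusted p of 0.0535 to 0.156) but double mutant replicate 1 and *Gpdh1* heterozygote replicates 1 and 3. *GstE3* (0.27) lost it without any 1 of the double mutants, double heterozygote replicate 1, *Gpdh1* mutant replicate 1 or 3 or *Gpdh1* heterozygote replicate 1 (0.0507 to 0.146). *GstD2* (-0.44) lost it without double mutant replicate 1 or 2 or *Gpdh1* mutant replicate 1 or 3 (0.0543 to 0.0791), and *GstE6* (-0.44) without replicate 2 of either mutant (0.0527 and 0.0616). *GstE14*, at a log2 difference of 1.06 that did not pass (adjusted p = 0.0553), passed without double mutant replicate 1, double heterozygote replicate 2 or 3 or *Gpdh1* mutant replicate 3 (0.0281 to 0.0481), and *GstT3* without *Gpdh1* heterozygote replicate 1 (0.0421).

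The wider glutathione system was described by 17 further genes, of which 12 passed the filter in both contrasts with controls. In double mutants, 8 of the 12 passed, each of them higher, where 25.3% of all genes were higher, with a median over the list of 0.31. *Gclc*, the catalytic subunit of glutamate-cysteine ligase, which makes the first step of glutathione synthesis, was at 107, 106 and 103 CPM in double mutants, against 39.0, 34.1 and 39.9 CPM in double heterozygotes. It was at 50.9, 44.4 and 52.6 CPM in *Gpdh1* mutants, against 37.3, 31.7 and 33.2 CPM in *Gpdh1* heterozygotes. Like *GstE1*, it was higher in both mutants and much more so in double mutants, by 1.48 (SE 0.0714) and 0.54 (SE 0.0892), and the difference of 0.95 passed (adjusted p = 0.000401). *Gclm*, the modifier subunit of the same enzyme, was higher in double mutants by 0.46 and changed by 0.07 without passing in *Gpdh1* mutants.

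The other genes that were higher in double mutants were *Keap1* (0.47), *Ggt-1* (0.43), *Gtpx* (0.35), *maf-S* (0.31), *Clic* (0.30) and *cnc* (0.29). *cnc* encodes the fly Nrf2 factor that drives GST genes under oxidative and xenobiotic stress, *Keap1* its inhibitor and *maf-S* its partner, while *Ggt-1* encodes a gamma-glutamyl transpeptidase and *Gtpx* a peroxidase. In *Gpdh1* mutants, 4 of 12 were higher, *Gtpx* (0.61), *Gclc* (0.54), *Clic* (0.29) and *cnc* (0.20), and 2 were lower, *gfzf* (-0.94) and *Ggt-1* (-0.73), with a median of 0.05. Over all genes 17.9% were higher and 20.2% lower there, so the 2 lower genes of 12 are near that share. *gfzf*, a zinc finger protein with a GST domain, was at 57.2, 56.3 and 54.9 CPM in double mutants, against 82.7, 43.4 and 87.9 CPM in double heterozygotes, where replicate 2 was below all mutants and the contrast did not pass. The thioredoxin reductase *Trxr1*, which serves flies in place of a glutathione reductase, the membrane-bound transferase *Mgstl* and the exporter *MRP* passed in neither contrast. *se*, an omega-class relative that makes eye pigment, had 0 to 5 counts per library and was not tested.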

How the data were processed

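RNA-seq libraries of whole larvae were made in 3 replicates for each of 4 genotypes. The deposited values are whole-number counts per gene, which the authors made with bcl2fastq 2.20.0.422, cutadapt 1.12, HISAT2 2.1.0 and HTSeq 0.9.0, per the submitters' processing notes. Genome build and strand setting are not given in the sources used here. The study's text describes another quantification, so whether these counts are the ones it analysed is not known. Summary lines were left out of library sizes (no feature 0.736 to 1.04%, ambiguous 1.97 to 2.17%, not unique 8.06 to 14.7% of gene counts and summary lines together). Of the 17185 gene IDs, 17059 matched the BDGP6.54 annotation, which gave symbols, positions and exon lengths. At totals of 22339930 to 26605495 counts, depth limits *GstD11* (2 to 14 counts) and *GstE14* (6 to 35 counts) most.

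Counts were filtered with filterByExpr (minimum count 10), scaled by TMM and tested with the quasi-likelihood F test of edgeR 4.0.16 in R 4.3.3, with Benjamini-Hochberg adjustment over all genes tested. The contrasts with controls used their own 6 libraries and the other comparisons all 12. Scripts were tested on simulated data. Alternatives were RLE factors, DESeq2 1.42.0, other filters, a 2-fold limit, a replicate block, each library left out, 1 fit of all libraries, and double mutant libraries summed. Values in every library were printed for members beyond a log2 fold change of 1 in a contrast with controls, for the 8 members with the smallest adjusted p in the difference, and for the most abundant member of each class. Members, gene lists and tests were chosen with earlier results of these data known. No protein or genomic sequence was used.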

Additional observations from a re-analysis of the deposited data

Results flagged for a closer look

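For 11 GST genes of the 34 tested, the double mutants and *Gpdh1* mutants responded unequally when the difference was tested directly. The difference is given as the double mutant log2 fold change minus the *Gpdh1* mutant one. Over all genes, 12.0% were higher and 13.5% lower in this test. The signed log2 fold change was higher in double mutants for *GstE1* (1.37), *GstD6* (1.19), *GstD8* (1.11), *GstD4* (0.79), *GstE12* (0.56), *GstS1* (0.34) and *GstE13* (0.29). It was lower in double mutants for *GstD2* (-0.89), *GstE7* (-0.88), *GstE9* (-0.79) and *GstT1* (-0.20), a count near the share of lower genes. The sign does not give the size of the change. *GstE7* and *GstT1* moved further from their controls in double mutants (-0.54 and -0.19) than in *Gpdh1* mutants (0.35 and 0.01). *GstE13* and *GstS1* moved less in double mutants (0.04 and -0.02) than in *Gpdh1* mutants (-0.25 and -0.35). As given above, *GstD8*, *GstE13* and *GstT1* lost their call in most alternatives. Both mutants share their *Gpdh1* alleles by label but differed in *Gpdh1* level, in tissue markers and in their controls. Double mutants were higher than *Gpdh1* mutants for 8 of 9 midgut, 4 of 7 tubule and 2 of 6 neuron markers, lower for 5 of 6 hemocyte, 5 of 9 muscle and 3 of 4 tracheal markers, higher for 2 of 5 cuticle markers, and higher for 1 and lower for 3 of the 7 fat body markers tested. Between the mutants, 18.9% of all genes were higher and 20.0% lower, which is near some of these counts. In the test of the difference itself, 5 of 5 larval cuticle markers were higher (median 1.96), as were 3 of 9 midgut markers, with 1 lower. Of 6 hemocyte markers, 3 were lower and 1 higher. The part of the *Gpdh1* level, the tissue markers and the controls in the GST differences was not tested.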

How the results depend on the processing

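Requiring a log2 fold change beyond 1 left 7 higher and 1 lower GST genes in double mutants, 6 and 1 in *Gpdh1* mutants, 3 and 0 in the difference, 0 and 0 between controls, and 4 and 0 between mutants. Among all genes, this limit left 731 and 380 of 10650 in double mutants and 397 and 470 of 10592 in *Gpdh1* mutants. Of 10880 genes, it left 467 and 364 in the difference, 165 and 458 between controls, and 460 and 646 between mutants. Summing the double mutant libraries left 10 and 2 in double mutants, 4 and 2 in the difference, and 7 and 4 between mutants, where fewer samples were fitted. Leaving out 1 library gave 17 to 19 higher and 5 to 6 lower in double mutants, 9 to 12 and 2 to 4 in *Gpdh1* mutants, 5 to 8 and 3 to 5 in the difference, 3 to 6 and 0 to 2 between controls, and 11 to 13 and 6 to 8 between mutants. With DESeq2 the counts were 18 and 5, 13 and 4, 7 and 3, 6 and 1, and 12 and 8. Of 38 results for genes given in every library, 29 kept their call in each setting and 9 lost it in at least 1, and no direction turned. Replicate numbers did not pair the samples (correlations of same-numbered libraries of -0.218 to 0.0196). The replicate block gave 17 and 5, 11 and 3, 6 and 5, 6 and 1, and 11 and 8. For the settings other than the fold limit, shares over all genes were not computed. Members at low counts, such as *GstE14* and *GstD11*, are limited by depth.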

Other observations

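The glutathione synthetase genes *Gss1* and *Gss2*, singled out after their values were seen, are neighbouring and very similar copies, and how the counting split reads between them is uncertain, so their counts were added. The sum was 93, 5 and 5 counts in double mutants, against 211, 1 and 36 in double heterozygotes, and 7, 0 and 87 counts in *Gpdh1* mutants, against 132, 7 and 0 in *Gpdh1* heterozygotes. Each group held 1 library far above its others, and all groups overlapped.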
